A study of Mus musculus with 3 samples.

Results

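Alpha beta T cells of mouse dorsal skin, regulatory T cells included, were examined in single-cell 3′ RNA sequencing libraries of tissue enriched for CD45+ cells on magnetic beads. The cells were chosen by their transcripts, counted as unique molecular identifiers (UMIs), each of which stands for 1 captured RNA molecule. A member had at least 2 UMIs of the CD3 genes Cd3e, Cd3d and Cd3g together, and at least 1 UMI of the alpha beta receptor constant genes Trac, Trbc1 and Trbc2. It had no UMI of Trdc or Tcrg-C1, which encode constant regions of the gamma delta receptor. It also had at most 2 UMIs of the macrophage genes C1qa, C1qb and C1qc together, and under 5 of the keratinocyte genes Krt14 and Krt5. Of 16604 cells that passed the limits of the study on mitochondrial RNA and gene number, 674 were members. WT_Ctrl held 272 members among 5309 kept cells, WT_UV 381 among 5225, and RP_UV 21 among 6070.

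WT_Ctrl was unirradiated skin of wild-type C57Bl/6 mice, and WT_UV was wild-type skin after 3 exposures to ultraviolet B (UVB). RP_UV was skin that received 3 UVB exposures in Rosa26-rtTA; Tre-Ptgs2 mice. There doxycycline turns on a rat copy of Ptgs2, the gene of the prostaglandin-producing enzyme Cox-2, in all tissues that use the Rosa26 promoter, T cells possibly included. All mice were 8-week-old males with resting (telogen) hair follicles, and the lines were kept on C57Bl/6N or C57Bl/6J backgrounds. Each group was 1 library of a single male sample, and both irradiated skins were collected at the same time point. No difference therefore has a replicate check, and none was tested. All intervals below are 95% intervals and cover counting error only.

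Alpha beta T cells recognise peptides presented on MHC molecules through a receptor of paired alpha and beta chains, and signal through the CD3 complex. CD8 T cells lodge in the epidermis and can kill target cells, among them melanocytes in vitiligo, whereas CD4 T cells steer other immune cells through the cytokines they secrete. Regulatory T cells are CD4 cells governed by the transcription factor Foxp3. They restrain inflammation, respond to UVB light in skin, and can release repair factors such as amphiregulin and enkephalin.

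The libraries differed in depth. By the labels WT_UV was sequenced in a flow cell of its own, so sequencing run and group cannot be told apart in any comparison with it. RP_UV shared a flow cell with WT_Ctrl but differed from it in both UVB and genotype, and whether the wild-type mice of these libraries were given doxycycline too is not stated in the sources used here. Members had a median of 2596 UMIs in WT_Ctrl, 6803 in WT_UV and 1951 in RP_UV. Summed over members, these were 1070485, 4050716 and 59476 UMIs. Barcodes shared by a pair of libraries numbered 29 among all deposited barcodes, before the cell limits, and 2 members carried such a barcode. Levels are given as UMIs per 1000000 UMIs of all genes in the same cells (CPM).

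The sequence of limits shows where the members came from. At least 2 CD3 UMIs were found in 403 kept cells of WT_Ctrl, while WT_UV had 897 such cells and RP_UV 92. An alpha beta constant gene was present in 385, 860 and 70 of them. The requirement of no Trdc lowered these numbers to 300, 501 and 36, and that of no Tcrg-C1 to 296, 482 and 32. The limit on C1q then left 277, 383 and 21 cells, and the limit on keratins the final 272, 381 and 21. In WT_UV the gamma delta genes therefore removed the most cells. Just inside the CD3 limit lay 25, 27 and 0 members with exactly 2 CD3 UMIs, and just outside it 28, 32 and 2 cells with 1. Exactly 1 UMI of the receptor constant genes was found in 13, 9 and 3 members, while 9, 9 and 3 cells failed only for having none.

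The label was checked on transcripts that the rule did not read. The signalling kinase gene Lck stood at 299 CPM in WT_Ctrl and 197 in WT_UV, and the costimulatory receptor gene Cd28 at 293 and 256. The B cell genes Cd79a and Ms4a1 had no UMI in any library, and the natural killer gene Ncr1 had 4 UMIs in WT_Ctrl and none in WT_UV or RP_UV. Some gamma delta transcripts outside the rule remained. The gamma chain constant genes Tcrg-C2 or Tcrg-C4 were found in 39 of 381 members of WT_UV (10.2%), 13 of 272 of WT_Ctrl (4.78%) and 0 of 21 of RP_UV. Trdv4, a delta chain variable gene, was found in 22 of 381 members of WT_UV, 1 of WT_Ctrl and 0 of RP_UV. All 22 had a Trbc UMI but only 6 had Trac, and 1 had a UMI of Cd4, Cd8a or Cd8b1. Receptor variable genes of the alpha chain were found in 30 members of WT_Ctrl and 95 of WT_UV, spread over 20 and 35 segments, and those of the beta chain in 20 and 66 members. Trac itself was found in 219, 328 and 15 members, and the Trbc genes in 251, 365 and 18.

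A fraction of the members carried transcripts of antigen-presenting cells as well. Members were called mixed when the MHC class II genes H2-Aa, H2-Ab1 and Cd74 made up over 0.5% of their UMIs, or when Lyz2, Csf1r, Adgre1, Mrc1 and Cd68 summed to at least 3 UMIs, limits that were set after the values had been seen. Mixed members numbered 56 of 272 in WT_Ctrl (20.6%, Wilson interval 16.2 to 25.8). WT_UV had 103 of 381 (27%, 22.8 to 31.7), whereas RP_UV had 4 of 21 (19%, 7.67 to 40). They were deep, with medians of 8487, 21466 and 6255 UMIs against 2398, 5716 and 1842 in the other members. Their CD3 content was diluted, at 7.28, 4.83 and 6.45 UMIs per 10000 against 23.4, 18.3 and 38. The dendritic cell gene Cd209a stood at 523 CPM in mixed members of WT_Ctrl and 9.72 in the rest, and at 533 and 3.65 in WT_UV. The 8 dendritic cell markers summed to 20370.2, 18078 and 7364 CPM over all members, in the order WT_Ctrl, WT_UV and RP_UV, and to 397, 428 and 116 CPM without the mixed ones. The 10 macrophage markers summed to 3003, 1584 and 6406 CPM, and to 458, 231 and 959 CPM without them. Mixed members held 42.3% of all member UMIs in WT_Ctrl, 52.7% in WT_UV and 42.2% in RP_UV. Whether these barcodes were doublets was not tested, and no doublet caller was run. Keratinocyte markers did not follow the mixed members, and their 8 genes summed to 1544, 180.2 and 369.9 CPM over all members and to 2627, 272 and 581 CPM without the mixed ones. The 6 fibroblast markers summed to 1129 CPM in WT_Ctrl and 8.89 in WT_UV, and to 1925 and 3.65 CPM without mixed members. In WT_Ctrl 478 of 486 Col1a1 UMIs lay in 1 member. The set without mixed members therefore still held transcripts of other cell types, more so in WT_Ctrl. Each result below is given for all members and, where it moves, without the mixed ones, which leaves 216, 278 and 17 cells.

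**Figure D1:**
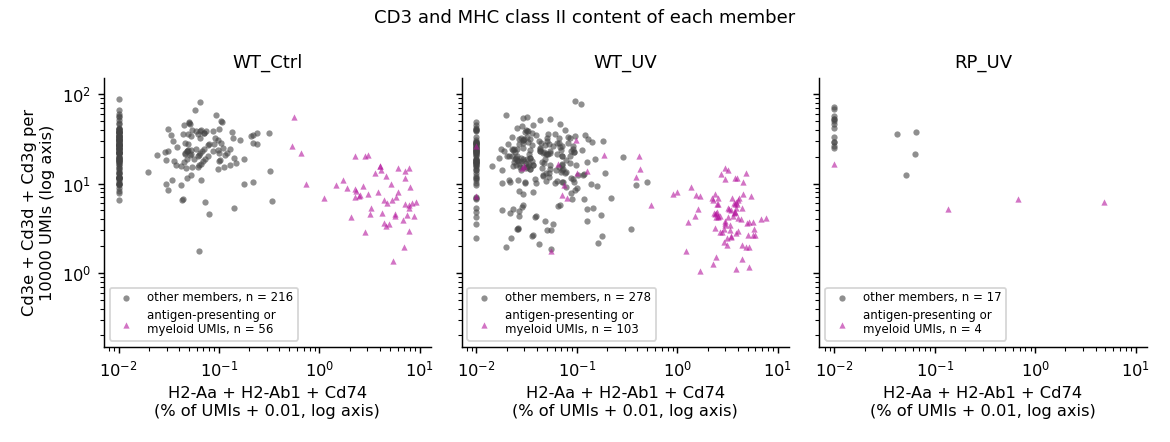
CD3 UMIs per 10000 UMIs (vertical, log axis) against the percentage of UMIs from H2-Aa, H2-Ab1 and Cd74 plus 0.01 (horizontal, log axis), with 1 point per member and 1 panel per library. Triangles are the 56, 103 and 4 mixed members, most of which lie at the lower right, with much class II and little CD3.

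Alpha beta T cells made up a larger share of kept cells in WT_UV than in WT_Ctrl, and a very small share in RP_UV. The share was 5.12% in WT_Ctrl (4.56 to 5.75). It was 7.29% in WT_UV (6.62 to 8.03), against only 0.346% in RP_UV (0.226 to 0.528). WT_UV over WT_Ctrl gave a ratio of 1.42 (1.22 to 1.65), and 1.35 (1.15 to 1.58) after all libraries had been thinned to the same median depth. Without mixed members the ratio was 1.31 (1.1 to 1.56). The direction turned when only cells with a UMI of Ptprc, the gene of CD45, and under 5 keratin UMIs were counted. Detection of Ptprc depends on depth, so leukocytes of the shallower libraries can be missed. Kept cells had a median of 4246 UMIs in WT_Ctrl, 10557 in WT_UV and 3774 in RP_UV. This denominator was not repeated at equal depth. By that denominator 250 of 2681 cells were members in WT_Ctrl (9.32%, 8.28 to 10.5). In WT_UV 378 of 4303 were members (8.78%, 7.98 to 9.67), which made the ratio 0.942 (0.809 to 1.1). The direction also turned, to 0.983 (0.804 to 1.2), when members could have no UMI of C1q, Krt14 or Krt5 at all. That limit is stricter for deeper cells, and left 186 members in WT_Ctrl and 180 in WT_UV. Keratinocyte gate cells, with at least 20 UMIs of Krt14 and Krt5, numbered 737 in WT_Ctrl and 321 in WT_UV, and the part of such cells in the ratio was not tested.

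In RP_UV the share was the lowest by either denominator. Of 2683 Ptprc-positive cells there, 18 were members (0.671%, 0.425 to 1.06). Among kept cells the ratio of RP_UV to WT_Ctrl, from the same run, was 0.0675 (0.0434 to 0.105), and that to WT_UV 0.0474 (0.0306 to 0.0735). The gamma delta gate, with at least 2 CD3 UMIs and at least 2 of Trdc and Tcrg-C1, held 88 cells in WT_Ctrl and 302 in WT_UV, but 29 in RP_UV. Macrophage gate cells, with at least 10 C1q UMIs, numbered 1810, 2327 and 2432.

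**Figure D2:**
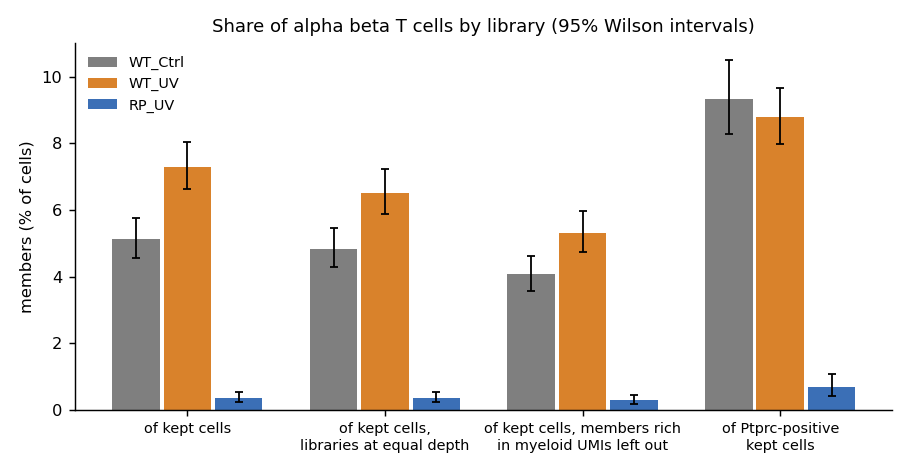
Members as a percentage of cells in each library under 4 settings, with bars from 0 and Wilson 95% intervals. WT_UV lies above WT_Ctrl over kept cells, the intervals of WT_Ctrl and WT_UV overlap over Ptprc-positive cells, and RP_UV is lowest in each setting.

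Foxp3, the defining gene of regulatory T cells, was detected in 19 of 272 members of WT_Ctrl (6.99%, 4.52 to 10.7) and 24 of 381 of WT_UV (6.3%, 4.27 to 9.2). None of the 21 members of RP_UV had a Foxp3 UMI, which allows a share of up to 14.3% (3 of 21 cells). That limit is for cells with a UMI, not for cells that express Foxp3, and the median depth there was 1951 UMIs. These shares were close, but WT_UV was the deeper library. With each member thinned to 1000 UMIs, which left out 4 members of WT_Ctrl and 1 of WT_UV, the expected share was 3.1% in WT_Ctrl (1.6 to 5.93) and 1.33% in WT_UV (0.57 to 3.06). The summed level was 26.2 CPM in WT_Ctrl (28 UMIs) and 12.3 CPM in WT_UV (50 UMIs), a fold of 0.472 (0.291 to 0.778), and without mixed members 38.9 and 20.3 CPM. Foxp3 was thus lower per UMI in WT_UV, while the intervals of the thinned shares overlapped. In macrophage gate cells, which should lack the gene, thinned shares were 0.0368% and 0.0267%.

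Cd8a and Cd8b1 encode both chains of the CD8 coreceptor of cytotoxic T cells. Cd8a was found in 107 members of WT_Ctrl (39.3%, 33.7 to 45.3) and 119 of WT_UV (31.2%, 26.8 to 36.1). RP_UV had 6 such members (28.6%, 13.8 to 50). At 1000 UMIs the Cd8a share was 23.5% in WT_Ctrl (18.8 to 29) and 13.5% in WT_UV (10.5 to 17.3), intervals that did not overlap. For Cd8b1 the thinned shares were 24.8% (20 to 30.3) and 14.9% (11.7 to 18.8). Without mixed members Cd8a stood at 26.1% (20.7 to 32.4) and 15.7% (11.9 to 20.5), which again did not overlap, although only narrowly. The summed Cd8a level was 288 and 148 CPM, a fold of 0.515 (0.448 to 0.593). Macrophage gate cells had thinned Cd8a shares of 0.104% and 0.171%, far under those of members.

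Cd4 gave a different picture before and after thinning. It was detected in 39 members of WT_Ctrl (14.3%, 10.7 to 19) and 128 of WT_UV (33.6%, 29 to 38.5). RP_UV had 3 such members (14.3%, 4.98 to 34.6). At 1000 UMIs the shares were 5.96% (3.7 to 9.46) and 6.4% (4.35 to 9.33), and the levels of 49.5 and 55.8 CPM had a fold of 1.13 (0.832 to 1.55). Cd4 is also transcribed by mouse macrophages, and macrophage gate cells had thinned shares of 2.97% and 3.18% with raw shares of 10.1% and 20%. The Cd4 shares of members therefore stood only moderately over those of cells that are not T cells. Of the Foxp3-positive members, 2 of 19 in WT_Ctrl and 14 of 24 in WT_UV had a Cd4 UMI. A UMI of a CD8 chain was found in 3 of 19 and 3 of 24. The Foxp3-positive members had median depths of 2401 and 9642 UMIs. Neither Cd4 nor a CD8 chain was detected in 115 members of WT_Ctrl (42.3%, 36.6 to 48.2) and 139 of WT_UV (36.5%, 31.8 to 41.4).

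Other genes tied to regulatory and activated T cells were detected more often. Ctla4, an inhibitory receptor, was found in 30 members of WT_Ctrl (11%, 7.84 to 15.3) and 58 of WT_UV (15.2%, 12 to 19.2), and in 1 of RP_UV. Its thinned shares of 6.23% (3.91 to 9.79) and 5.09% (3.3 to 7.79) overlapped. Il2ra, the high-affinity chain of the interleukin 2 receptor, was found in 20, 87 and 6 members, with thinned shares of 3.54% (1.9 to 6.48) in WT_Ctrl and 5.3% (3.47 to 8.04) in WT_UV. Its level was 32.7 CPM in WT_Ctrl and 51.3 in WT_UV, a fold of 1.57 (1.09 to 2.32). Ikzf2, the gene of Helios, had thinned shares of 9.7% (6.71 to 13.8) and 8.55% (6.13 to 11.8), but keratinocyte gate cells reached 13.2% and 6.97%, so its detection alone did not mark a T cell here.

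**Figure D3:**
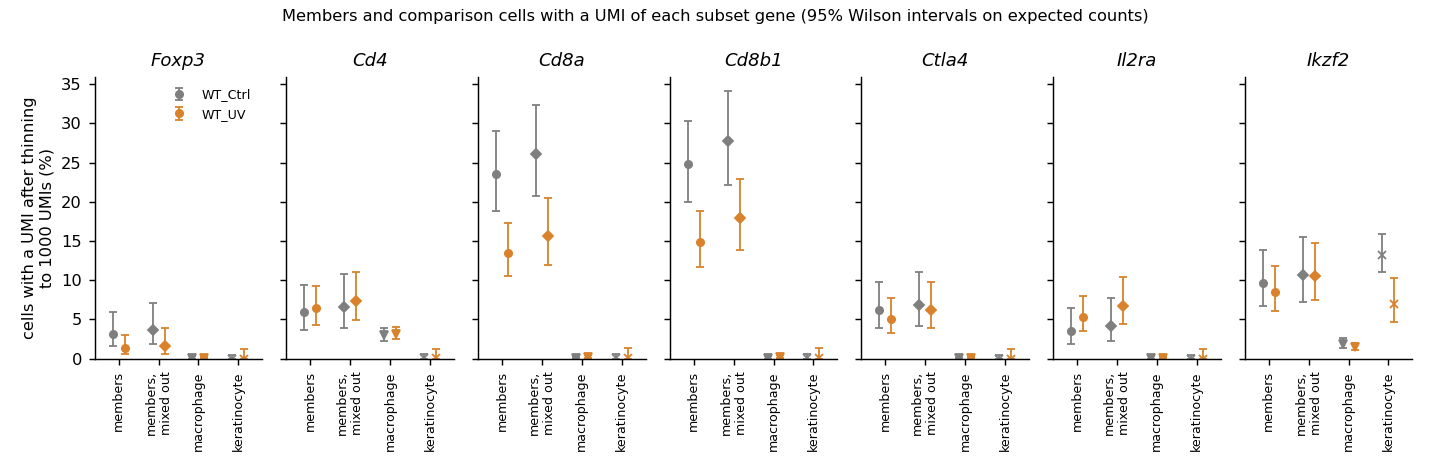
Percentage of cells with a UMI after each cell was thinned to 1000 UMIs, for 7 subset genes in members, members without the mixed ones, macrophage gate cells and keratinocyte gate cells of WT_Ctrl and WT_UV, with Wilson 95% intervals on expected counts. Cd8a and Cd8b1 are lower in WT_UV than in WT_Ctrl, Cd4 is found in macrophage gate cells too, and Ikzf2 in keratinocyte gate cells.

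Members with a Foxp3 UMI carried more of the regulatory T transcripts per UMI than the other members in both wild-type libraries. The sides of each split share a sequencing run but rest on few cells, 19 against 253 in WT_Ctrl and 24 against 357 in WT_UV. Foxp3-positive members of WT_UV were also deeper, at a median of 9642 UMIs against 6803 for all members there. Ctla4 stood at 969 CPM in Foxp3-positive members and 29 in the others of WT_Ctrl, a fold of 33.4 (21.4 to 53.5), and at 716 and 30.8 CPM in WT_UV, a fold of 23.3 (18.4 to 29.5). Ikzf2 was at 1222 and 72.1 CPM in WT_Ctrl, a fold of 17 (12.3 to 23.5). In WT_UV it stood at 1106 and 53.3 CPM, a fold of 20.8 (17.3 to 24.9). Il2ra had folds of 21.1 (10.2 to 44.8) and 9.52 (7.14 to 12.6). Of the Ctla4 UMIs of all members, 69 of 98 in WT_Ctrl and 200 of 316 in WT_UV thus lay in the few cells in which Foxp3 itself was caught. Without mixed members the Ctla4 folds were 48.5 and 18.5.

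Costimulatory receptors of the TNF receptor family followed Foxp3 as well. Tnfrsf4, the gene of OX40, had folds of 40.5 (23.3 to 73.7) in WT_Ctrl and 11.7 (9 to 15.2) in WT_UV, and Tnfrsf18, the gene of GITR, folds of 6.94 (4.67 to 10.2) and 3.4 (2.68 to 4.29). Keratinocyte gate cells carried both genes too. Their thinned Tnfrsf18 shares were 15.4% in WT_Ctrl and 11.7% in WT_UV, against 11.8% and 12% in members. For Tnfrsf4 these shares were 3.87% and 2.75%, against 4.86% and 4.61%. Icos, another costimulatory receptor, stood at 871 and 269 CPM in WT_Ctrl and at 745 and 251 in WT_UV. Tnfrsf9, the gene of 4-1BB, was at 254 CPM in Foxp3-positive members of WT_UV and 18.3 in the others, but had only 6 UMIs among all members of WT_Ctrl. The suppressive cytokine gene Il10 had 7 UMIs in WT_Ctrl, all in Foxp3-positive members. In WT_UV it had 33 UMIs in 9 members, of which 5 had Foxp3 and 4 were mixed. Foxp3-positive members held 13 of these UMIs, and 1 other member held 15. Macrophage gate cells of WT_UV had an Il10 UMI in 8.94%.

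Genes of tissue regulatory cells gave mixed values. Klrg1, a receptor of differentiated lymphocytes, had folds of 70.2 (19.9 to 378) and 71.4 (31.4 to 189.7). Il1rl1, which encodes the receptor for interleukin 33, had folds of 4.21 (1.38 to 10.9) and 6.58 (4.37 to 9.77). Areg, the gene of the repair factor amphiregulin, was higher with Foxp3 in WT_Ctrl, at 211 against 22 CPM (fold 9.57, 4.62 to 19.3). In WT_UV it was level, at 68 against 65.8 CPM (fold 1.03, 0.612 to 1.65). Rora and Gata3 differed little with Foxp3, at folds of 1.05 and 1.62 in WT_Ctrl and 1.02 and 1.51 in WT_UV.

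Effector genes were low where Foxp3 was found. Ccl5, a chemokine gene of CD8 and memory T cells, stood at 70.2 CPM in Foxp3-positive members and 1131 in the others of WT_Ctrl, and at 46.5 and 384 in WT_UV. Ifng, the gene of interferon gamma, had 0 UMIs in Foxp3-positive members of WT_Ctrl against 276 CPM in the rest, and 28.6 against 176 CPM in WT_UV. Il13 had no UMI in a Foxp3-positive member of either library. Cxcr6, a homing receptor of resident cells, was at 98.3 against 391 CPM and at 17.9 against 297 CPM. An exception among effector genes was Gzmb, which encodes granzyme B, at folds of 2.45 (1.42 to 4.01) and 4.6 (3.38 to 6.18) in favour of Foxp3-positive members.

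**Figure D4:**
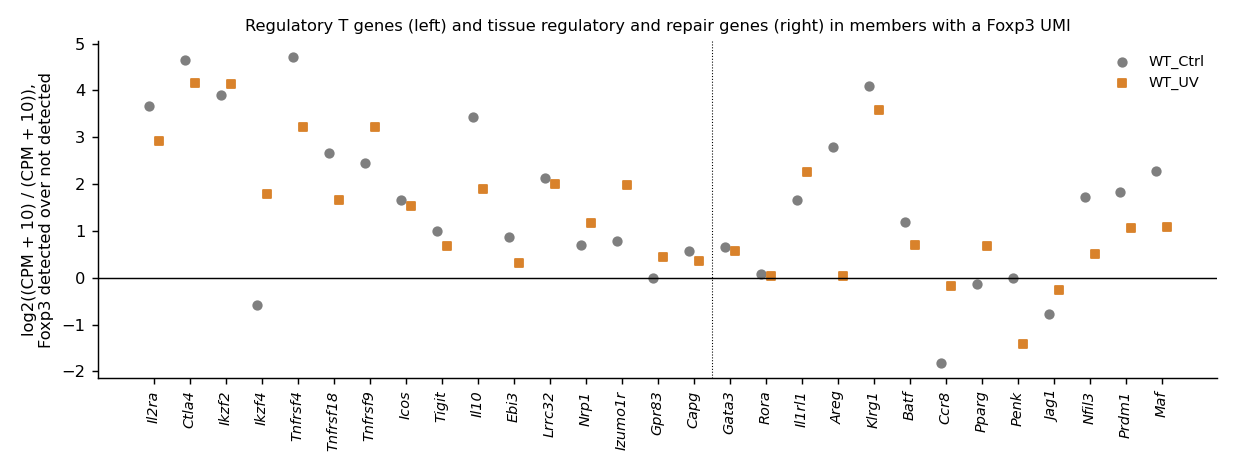
Difference between members with and without a Foxp3 UMI, as log2 of the ratio of CPM plus 10, for the other genes of the regulatory T list (left of the dotted line) and the tissue regulatory and repair list (right) in WT_Ctrl (circles) and WT_UV (squares). Ctla4, Ikzf2, Il2ra, Tnfrsf4 and Klrg1 lie far above 0 in both libraries, while Areg lies above 0 in WT_Ctrl and near 0 in WT_UV.

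A split by coreceptor separated the cytotoxic genes. It compared 118 members of WT_Ctrl and 114 of WT_UV that had a CD8 chain and no Cd4 with 35 and 112 that had Cd4 and no CD8 chain. Nkg7, a gene of cytotoxic granules, stood at 1196 CPM in CD8 members and 573 in Cd4 members of WT_Ctrl, and at 904 and 162 in WT_UV. The CD8 side was higher for Ccl5 at folds of 6.05 (4.53 to 8.26) and 15.2 (12.3 to 19), and for Itgae, which encodes the epidermal retention integrin CD103, at folds of 1.96 (1.34 to 2.93) and 2.58 (2.17 to 3.08). Cd160 had no UMI in Cd4 members and stood at 144 and 136 CPM in CD8 members. The Cd4 side was higher for the helper genes Cd40lg, at 150.2 against 45.2 CPM and 126 against 70 CPM, and Il13, at 47.8 against 8.22 CPM and 81.1 against 11.2 CPM. Since Cd4 marked macrophages and deep cells too, with a median of 9029 UMIs in Cd4 members of WT_UV against 6468 in CD8 members, these values describe detection classes.

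To describe what differed after UVB, levels summed over members were compared between WT_UV and WT_Ctrl across genes with at least 50 CPM in either library and a UMI in at least 10% of members of the higher library. Genes were called past a 2-fold difference with an interval that left out 1. Of 3055 genes, 50 were called higher in WT_UV (1.64%) and 26 lower (0.851%). Without mixed members, 42 of 3064 were called higher (1.37%) and 42 lower (1.37%). The calls had 15 higher genes and 17 lower genes in common. Most higher calls of either set were thus absent from the other. Of the lower calls, 17 of 26 over all members were shared, against 17 of 42 without mixed members. The median log2 difference over all genes past these limits, with 10 CPM added to each level, was −0.05 for all members and −0.07 without the mixed ones.

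Among the 12 genes with the largest increases, 5 were genes of myeloid cells. Clec4n, the gene of a C-type lectin of myeloid cells, stood at 84.7 CPM in WT_UV and 9.34 in WT_Ctrl, a fold of 9.06 (4.87 to 19.1). Of its 343 UMIs in WT_UV, the members without mixed ones held 6, at 3.13 CPM. Mmp12, Plek, Cd86 and Lilrb4a likewise had 1.57, 3.65, 18.8 and 4.7 CPM left in WT_UV when mixed members were set aside, from 89.6, 169.6, 78.8 and 81.2. In all other kept cells Clec4n had a fold of 7.9, near that in members. The levels of these genes moved with the mixed members.

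A second set of increases was at least as large without mixed members, with the exception of Pxdc1. Bhlhe40, a transcription factor of activated and cytokine-producing T cells, stood at 163 CPM in WT_UV and 45.8 in WT_Ctrl, a fold of 3.55 (2.66 to 4.85), against 1.37 in all other kept cells. It was found in 197 and 34 members, and stood at 135 CPM in RP_UV (8 UMIs in 6 members). Il13 was at 99.2 and 27.1 CPM, a fold of 3.66 (2.51 to 5.54), and Furin, which encodes a protease that processes growth factor precursors, at 375 and 125 CPM, a fold of 2.99 (2.51 to 3.6). Tnfsf8, the gene of CD30 ligand, was at 66.2 and 18.7 CPM, and 70 of its 268 UMIs in WT_UV lay in 1 member. Without mixed members the folds of Bhlhe40, Il13, Furin and Tnfsf8 were 4.1, 5.14, 3.96 and 4.19, and that of Pxdc1 was 2.24 in place of 2.97. In all other kept cells Il13 had a fold of 3.67, Furin one of 3.12 and Tnfsf8 one of 3.1. Basp1 had a fold of 2.81 (2.14 to 3.75), with 73 of its 86 positive members in WT_UV mixed. Without mixed members it had 77 UMIs in WT_UV and 1 in WT_Ctrl, a fold of 24.8 (4.32 to 992).

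The largest decreases were keratinocyte genes. Krt10, a keratin of differentiating keratinocytes, stood at 61.7 CPM in WT_UV and 601 in WT_Ctrl, a fold of 0.103 (0.0884 to 0.119). In WT_Ctrl 354 of its 643 UMIs came from 1 member, without which the level there was 274 CPM. Krtdap, Sbsn, Hspb1 and Krt77 had 70.9% to 79.2% of their WT_Ctrl UMIs in a single member each, and Lgals7 had 37.9%. When members had to have no UMI of C1q, Krt14 or Krt5, the log2 differences of Krt10 and Krtdap became 0.16 and 0.38. The rule limits keratins, so these values are given as a description only.

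Among the 12 genes with the largest decreases over all members, Ccl5 was the one chemokine gene known from T cells. It stood at 360.4 CPM in WT_UV and 1060.3 in WT_Ctrl, a fold of 0.34 (0.314 to 0.368), with UMIs in 165 and 147 members. Without mixed members the levels were 625 and 1375 CPM, a fold of 0.455 (0.416 to 0.497), and in all other kept cells the fold was 0.715. Tesc, which encodes a calcium-binding protein, was at 113 and 286 CPM, a fold of 0.394 (0.34 to 0.457), and was found in 223 and 150 members. The other decreases were Ccl6 at 49.1 and 177 CPM, Crip2 at 17 and 57.9 CPM, and the macrophage genes Retnla at 53.1 and 166 CPM and Apoe at 102 and 288 CPM. Retnla and Apoe had folds of 0.386 and 0.628 in all other kept cells.

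Gene lists were described by how many of their genes were called and by their median log2 difference. The T cell identity list had a median of −0.45 for all members and −0.28 without mixed ones, with 0 of 22 genes called. Of these 22 genes, 15 had an interval that lay under a fold of 1. The list turned to 0.05 when the limit of 4000 genes was applied in every library. Cd3e itself was level at 249 and 240.1 CPM, a fold of 1.04 (0.903 to 1.19), and Trac was at 400.4 and 547 CPM. The rule read Cd3e, Cd3d, Cd3g, Trac, Trbc1 and Trbc2, which are all in this list. Neither their levels nor the median and interval count of the list are therefore findings.

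Cytotoxic genes had a median of −0.43 for all members, next to T cell identity, and of −0.42 without mixed ones, the lowest of the 19 lists there, with 3 and 2 of 14 genes called lower. Nkg7 stood at 413 CPM in WT_UV and 777 in WT_Ctrl, a fold of 0.531 (0.489 to 0.578). Gzmb was at 59.2 and 119.6 CPM, a fold of 0.496 (0.398 to 0.619), and Ccl4, a chemokine gene of activated CD8 cells, at 103 and 221 CPM, a fold of 0.467 (0.397 to 0.55). Ccl4 was at 82.4 and 291 CPM without mixed members. Gzmc went the other way, at 157 and 8.41 CPM, but 557 of its 637 UMIs in WT_UV lay in 1 member and the level without that member was 19.9 CPM. Of the 14 genes, 12 had a lower value in WT_UV. The 6 natural killer markers, of which Gzma is also a granzyme gene, were lower in members as well, at a sum of 51.4 CPM (38.7 to 66.9) in WT_Ctrl and 10.6 (7.68 to 14.3) in WT_UV, and at 84.2 and 17.2 CPM without mixed members. They were found in 9 and 19 members, and the part of natural killer cells was not tested.

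Type 1 genes, which include Ifng and its regulators, were divided. Their median was −0.07 for all members and −0.17 without mixed ones, with 0 and 1 of 8 genes called lower. Ifng stood at 165 and 258 CPM, a fold of 0.642 (0.557 to 0.741), and was found in 179 and 124 members. Cxcr3, a receptor for interferon-induced chemokines, was at 63.4 and 125 CPM, a fold of 0.507 (0.41 to 0.629), and was the gene called without mixed members. Tbx21, the gene of T-bet, was at 44.7 and 80.3 CPM, a fold of 0.556 (0.428 to 0.728). Stat4 was higher, at 29.1 and 14.9 CPM, a fold of 1.95 (1.15 to 3.52). Il18r1 and Il18rap, chains of the interleukin 18 receptor, were higher as well, at folds of 1.34 (1.1 to 1.65) and 1.56 (1.09 to 2.29).

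The type 2 list had the highest median, 0.40 for all members and 0.55 without mixed ones, with 1 of 7 genes called. That gene was Il13, a cytokine gene of type 2 immunity. It was found in 77 members of WT_UV, 12 of WT_Ctrl and 0 of RP_UV, and no WT_UV member held more than 41 of its 402 UMIs. At 1000 UMIs its shares were 2.13% in WT_Ctrl (0.964 to 4.66) and 7.14% in WT_UV (4.95 to 10.2), which did not overlap. Of the 77 members, 47 had a Trac UMI, 27 a Cd4 UMI and 12 a Cd8a UMI. No Il13 UMI was found in natural killer gate cells, and gamma delta cells stood at 41.2 CPM in WT_Ctrl and 22.3 in WT_UV. Il1rl1 and Calca, which innate lymphoid cells also use, stood at 29.4 and 15.1 CPM in members of WT_UV and at 24.3 and 1.87 in those of WT_Ctrl, and the part of such cells was not tested. With Trac required, the log2 difference was 1.16 in place of 1.56, and with libraries thinned to the same depth 0.89. Il4 and Il5 had 61 and 23 UMIs in WT_UV against 9 and 2 in WT_Ctrl, with folds of 1.79 (0.884 to 4.1) and 3.04 (0.751 to 26.6) that did not exceed counting error.

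Interleukin 17 genes were found in WT_UV but not in WT_Ctrl. Il17a had 95 UMIs in 10 members of WT_UV, 0 in WT_Ctrl and 30 in 2 members of RP_UV, of which 29 lay in 1 member. Il17f had 104 UMIs in 10 members of WT_UV and none in the other libraries. Of the 10 members with Il17a, 8 had Trac and 7 had Cd4, and 1 was mixed. The counts of 0 in WT_Ctrl allow up to 2.8 CPM, against 23.5 CPM of Il17a and 25.7 CPM of Il17f in WT_UV. A single member held 32 of the Il17a UMIs and a single member 57 of the Il17f UMIs, without which the levels were 15.6 and 11.6 CPM. The type 17 list had a median of 0.32, with 8 of 8 genes higher in value and 0 called, since all were under 50 CPM.

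The regulatory T list had a median of −0.13, which became 0.11 without mixed members, with 0 of 17 and 2 of 17 genes called. Ctla4 stood at 78 and 91.5 CPM, a fold of 0.852 (0.677 to 1.08), and Icos at 285 and 309 CPM, a fold of 0.922 (0.815 to 1.05). Tnfrsf9 was at 34.6 and 5.6 CPM, a fold of 6.17 (2.76 to 17.1), from 140 and 6 UMIs, and had a fold of 6.23 in all other kept cells. Without mixed members Tnfrsf9 and Il2ra were called, at 63.1 and 3.24 CPM and at 96.5 and 47 CPM. The interval of Ikzf2, at 126 and 149 CPM, held a fold of 1 (0.848, 0.708 to 1.02).

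Tissue regulatory and repair genes had a median of 0.30 and 0.33 without mixed members, with 1 of 13 genes called in either set. Nfil3, a transcription factor gene, stood at 74.8 and 32.7 CPM, a fold of 2.29 (1.61 to 3.35), and was the gene called over all members. Areg was at 65.9 and 34.6 CPM, a fold of 1.91 (1.35 to 2.77), and was called at 129 and 53.4 CPM without mixed members. It was found in 52 members of WT_UV and 16 of WT_Ctrl, of which 9 and 5 had Foxp3, and its thinned shares of 4.42% (2.77 to 6.98) and 2.99% (1.53 to 5.79) overlapped. Maf and Rora had folds of 1.5 (1.29 to 1.75) and 1.34 (1.16 to 1.55). Penk, the gene of proenkephalin, had 138 UMIs in 4 members of WT_UV and none in WT_Ctrl, but 131 lay in 1 member. Of these 4 members, all had Cd4 and 1 had Foxp3.

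Genes of receptor signalling and activation had a median of 0.25 and 0.30 without mixed members, with 0 of 15 called. Tnfaip3, a brake on NF-kB signalling, stood at 390.1 and 304 CPM, a fold of 1.28 (1.14 to 1.45), and at a fold of 1.81 (1.54 to 2.13) without mixed members. Nr4a1, an early marker of receptor stimulation, had folds of 1.11 (0.996 to 1.25) and 1.46 (1.25 to 1.7) in the same order. The immediate early and dissociation stress list was level at −0.08, although Hspa1b, which encodes a heat shock protein, had a fold of 1.9 (1.66 to 2.18), and was called at 2.34 (1.89 to 2.91) without mixed members.

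Receptors for lodging in and leaving the skin were divided. The tissue residency list had a median of −0.26 and −0.12 without mixed members, with 0 of 9 genes called. Itgae stood at 246 and 340 CPM, a fold of 0.722 (0.64 to 0.817), whereas Cd69 was level at 494 and 484 CPM. The homing receptor list had a median of −0.05. Ccr10, which binds a chemokine of keratinocytes, was called lower at 43.9 and 118 CPM, a fold of 0.373 (0.295 to 0.473), with UMIs in 108 and 82 members. Cxcr4 was higher at 171 and 85.9 CPM, a fold of 1.99 (1.6 to 2.51), and was called at 2.15 (1.64 to 2.86) without mixed members. In all other kept cells Cxcr4 had a fold of 4.17. The recirculation list had a median of −0.10, with 0 of 9 genes called.

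The remaining lists lay near the median of all genes or changed with the mixed members. Proliferation genes had a median of −0.26 for all members and 0.16 without mixed ones, with Tuba1b called at a fold of 2.17 (1.81 to 2.61) in the first set and 0 of 14 in the second. Mki67, a marker of cycling cells, stood at 99.7 and 127 CPM. Targets of p53 had a median of 0.13 and −0.05 without mixed members, with Ccng1 called at 2.11 (1.47 to 3.1) in the first set. Interferon-stimulated genes had a median of −0.03, with Isg15 at 45.7 and 65.4 CPM, and JAK-STAT and feedback genes one of 0.03, with Cish at 187 and 121 CPM. Other cytokine genes had a median of 0.17 and 0.37 without mixed members, with 8 and 9 of 11 genes higher in value. Il2 was lower at 50.1 and 78.5 CPM, a fold of 0.639 (0.493 to 0.834). Inhibitory receptor genes had a median of −0.03 and 0.25 without mixed members, with 4 and 6 of 9 genes higher in value. Pdcd1, the gene of PD-1, had only 3.46 and 0.934 CPM.

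Prostaglandin receptors were of interest because of the Cox-2 mice. Ptger4, which encodes the EP4 receptor for prostaglandin E2, was the most abundant at 91.1 CPM in WT_UV and 107 in WT_Ctrl, a fold of 0.848 (0.686 to 1.05). Ptger3 was at 10.9 and 25.2 CPM, a fold of 0.431 (0.261 to 0.723). Ptger1 and Ptger2 had under 2 CPM in each wild-type library, and Ptgdr had no UMI. Crem, a gene that responds to cyclic AMP, was at 118 and 70.1 CPM, a fold of 1.68 (1.32 to 2.18). The list had a median of 0.04, with 0 of 10 genes called.

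**Figure D5:**
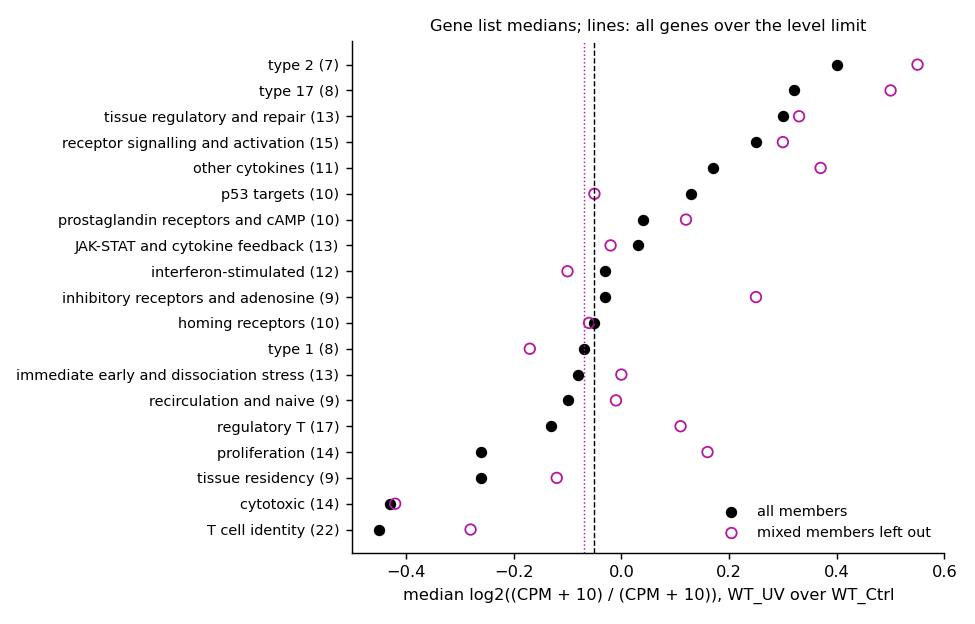
Median log2 of the ratio of CPM plus 10 in WT_UV over WT_Ctrl for 19 gene lists, with the number of genes in each list in parentheses. Filled points are all members and open circles leave mixed members out. The lines mark the medians of all genes past the limits on level and detection, −0.05 (dashed) and −0.07 (dotted). Type 2 genes lie highest, T cell identity genes lowest for all members and cytotoxic genes lowest without the mixed ones, and the proliferation and regulatory T lists change sides. The T cell identity list holds genes that the rule read.

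The 21 members of RP_UV allow little beyond their number. Of 3608 genes past the same limits, 220 were called higher than in WT_Ctrl (6.1%) and 89 lower (2.47%). Against WT_UV 232 of 3571 were higher (6.5%) and 86 lower (2.41%). With 59476 UMIs in all, a gene at 0 UMIs could stand at up to 50.4 CPM. The median log2 difference of the genes past the limits was 0.15 against WT_Ctrl and 0.20 against WT_UV. A gene could pass the limit of 50 CPM through RP_UV on 3 UMIs. The limits thus favour genes that are high in RP_UV, so these medians and the excess of higher calls are not findings. Both comparisons use the same 21 cells, and their values are given side by side.

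Ptgs2, the gene of the transgene, stood at 471 CPM in RP_UV members (28 UMIs in 5 members), 87.4 in WT_UV and 5.6 in WT_Ctrl. Of the 18 positive members in WT_UV, 17 were mixed, and the level without mixed members was 0.522 CPM. In RP_UV 2 of the 5 positive members were mixed and the level without them was 552 CPM, while all other kept cells had 486 CPM. How far reads of the rat copy were counted as mouse Ptgs2 was not tested. Clec4e, Slc7a11, Nlrp3 and Clec4n were the next highest against WT_Ctrl, at 286, 269, 252 and 235 CPM, and all had 0 UMIs without mixed members. Clec4e, Slc7a11 and Nlrp3 were also among the 5 highest against WT_UV, with Cxcl10 at 252 and 25.9 CPM and Lyz2 at 5397 and 975 CPM. Without mixed members Cxcl10 was at 29.1 and 29.2 CPM.

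The T cell lists of RP_UV members were divided. Ccl5 stood at 1160.1 CPM (903 to 1468), with a fold of 1.09 (0.845 to 1.4) to WT_Ctrl and of 3.22 (2.49 to 4.1) to WT_UV. Nkg7 was at 908 CPM (682 to 1185), with folds of 1.17 (0.87 to 1.54) and 2.2 (1.64 to 2.88). Nfkbia, an inhibitor of NF-kB, stood at 2169 CPM (1811 to 2577), with a fold of 2.02 (1.67 to 2.43) to WT_Ctrl and 2.01 (1.68 to 2.4) to WT_UV. Fos had 2438 CPM (2057 to 2869), with folds of 1.86 (1.56 to 2.21) and 1.96 (1.65 to 2.32). These values are for all members. Of the 15 receptor signalling genes, Nfkbia among them, 4 were called higher against WT_Ctrl and 1 against WT_UV. Without mixed members 3 and 0 were called. Over all genes past the limits, 6.1% and 6.5% were called higher, and 5% and 5.49% without mixed members. The tissue residency list went the other way, with a median log2 difference of −0.95 to WT_Ctrl and −0.64 to WT_UV and 2 of 9 genes called lower in each. Itgae stood at 84.1 CPM (27.3 to 196) in RP_UV, from 5 UMIs in 3 members, a fold of 0.247 (0.0798 to 0.582) to WT_Ctrl and 0.342 (0.111 to 0.801) to WT_UV. Cxcr6 had folds of 0.317 (0.126 to 0.658) and 0.423 (0.17 to 0.875). Ctla4 and Ccr10 had 1 UMI each in RP_UV, at 16.8 CPM (0.426 to 93.7).

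Some genes of the wild-type members had no UMI in RP_UV. Hlf, a transcription factor gene found in 119 members of WT_UV, was at 102 CPM there and Il13 at 99.2, at least 2.03-fold and 1.97-fold higher than in RP_UV, taken at the level of 3 UMIs over the group. Jak2 and Il6ra, with 92.6 and 91.3 CPM in WT_UV, were at least 1.84-fold and 1.81-fold lower in RP_UV. Without mixed members their levels in WT_UV, 58.4 and 61.6 CPM, were under the 87.2 CPM that 3 UMIs make in RP_UV, so no decrease of Jak2 or Il6ra was detectable there, while Hlf and Il13 kept bounds of 2.24-fold and 2-fold. Krt77, Retnla, Fcrls and Ly86, which were among the lowest against WT_Ctrl, are keratinocyte or myeloid genes.

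Members were last set beside the most similar cells of the same libraries. The gamma delta gate held 88 and 302 cells of WT_Ctrl and WT_UV, and the natural killer gate, with Ncr1 or Klrb1c and no CD3, only 16 and 33. Cd28 stood at 293 and 256 CPM in members and at 19 and 45 in gamma delta cells, and Cd5, a brake on receptor signalling, at 171 and 89.4 against 12.7 and 13.7. The genes Ifng and Ccl5 were higher in members too, at 258 and 165 CPM and at 1060.3 and 360.4 CPM, against 6.33 and 30.7 and against 19 and 109 in gamma delta cells. Gamma delta cells were higher for Xcl1, at 2074 and 735 CPM against 76.6 and 62.5, for Cd7, at 2067 and 961 against 339 and 154, and for Rgs1, at 3426 and 1674 against 399.8 and 431. Areg was highest in gamma delta cells of WT_Ctrl at 538 CPM, and at 139.6 CPM in those of WT_UV. Gzma, a granzyme gene of natural killer cells, was at 4111 and 631 CPM in natural killer gate cells and at 24.3 and 3.46 in members.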

How the data were processed

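For 3 libraries, 1 per group, unnormalized UMI counts were deposited as filtered cell matrices, made with Cell Ranger 6.1.1 per the file headers on mm10 per the submitters' processing notes. Kept cells had under 10% mitochondrial UMIs and over 200 and under 4000 genes (under 6000 in WT_UV, which was sequenced more deeply), as in the methods of the study. Members, gene lists and comparison gates were chosen with earlier results of these data known. The named genes were the 12 highest and 12 lowest for WT_UV over WT_Ctrl and the 5 highest and lowest for RP_UV with at least 10 UMIs, leaving out mitochondrial, ribosomal and predicted genes and those of the rule, beside list members given as examples and the subset genes. Counts were summed over the members of a library with Python 3.11.15, numpy 2.4.6 and scipy 1.17.1. CPM have exact Poisson intervals, folds exact conditional binomial ones, shares Wilson intervals, and share ratios intervals from the log ratio. Shares were thinned to 1000 UMIs per cell by the hypergeometric expectation. Folds and their intervals were tested on simulated Poisson sums, and thinning on random draws. The simulated sums did not include UMIs gathered in single cells, which the intervals do not cover either. No integration or clustering was used. Some of the named genes are not reported here.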

Additional observations from a re-analysis of the deposited data

How the results depend on the processing

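The ratio of member shares, WT_UV over WT_Ctrl, stayed above 1 under 8 of 10 alternatives and turned to 0.983 with no C1q or keratin UMI allowed and to 0.942 over Ptprc-positive cells. Unthinned, Foxp3 shares were 6.99% in WT_Ctrl and 6.3% in WT_UV, Cd4 shares 14.3% and 33.6%, and Cd8a shares 39.3% and 31.2%. At 2000 UMIs the Cd4 share of WT_UV was 11.6% and the Cd8a shares were 34.5% and 20.4%. Genes called higher numbered 118 with a limit of 20 CPM, against 50 of 3055 (1.64%) in the main setting. The settings change which genes pass the limits, so counts given here without a total cannot be read as shares. Genes called lower numbered 26 of 3055 (0.851%) in the main setting. They numbered 115 with the limit of 4000 genes in every library and 45 without members that had 3 myeloid UMIs. Leaving out mixed members gave 42 of 3064 (1.37%). Without mixed members, genes called lower in RP_UV numbered 43 of 3798 against WT_Ctrl (1.13%) and 47 of 3733 against WT_UV (1.26%). Under the limit of 4000 genes in every library the log2 differences of Mmp12 and Basp1 turned to −0.13 and −0.25 and the median of the T cell identity list to 0.05. Mmp12 and Plek turned to −0.01 and −0.07 without members that had 3 myeloid UMIs, and to −0.01 and −0.53 without mixed members. With no C1q or keratin UMI, Krt10, Sbsn, Krt77, Krtdap and Lgals7 turned to 0.16, 0.18, 0.17, 0.38 and 0.34. A pseudocount of 1 CPM moved the medians of the type 2 and type 17 lists to 1.22 and 1.08. The mixed and Trac alternatives were added after the data had been seen. The cause of these changes was not tested. No paired analysis was possible because each group had 1 library. No replicate could be left out for the same reason, and the depth of RP_UV members limits their values to genes above 50.4 CPM.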
